A study of Mus musculus with 2 samples.

Results

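The transforming growth factor-beta (TGFβ) and activin pathways were examined, cell class by cell class, in small tumours grown under the skin from the mouse melanoma line B16F10. The 10 genes described encode ligands (Tgfb1, Tgfb2, Tgfb3 and Inhba), receptors (Tgfbr1, Tgfbr2 and Tgfbr3), proteins that hold or release the latent ligand (Ltbp1 and Thbs1) and a matrix protein named for its induction by TGFβ (Tgfbi). They were chosen by name, with earlier results of these data known, and all 10 are among the 31053 genes of the deposited matrices. There was 1 library from Atf4 WT/WT hosts (labelled Atf4wt/wt) and 1 from Atf4 Δ/Δ hosts (labelled Atf4D/D), each labelled as a pool of 2 tumours from male and female mice aged 11 weeks. Per the study's methods, hosts of both genotypes were C57BL/6 mice that carried Rosa26::CreERT2 and received tamoxifen, and Atf4 is deleted throughout the Atf4 Δ/Δ host once the Cre acts. The injected melanoma cells keep their own Atf4 in both genotypes, so the genotype label concerns host cells only.

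TGFβ is secreted in a latent complex that is anchored in the extracellular matrix by latent TGFβ-binding proteins and is opened by integrins, proteases or thrombospondin-1. Active ligand joins the type II receptor Tgfbr2 and the type I receptor Tgfbr1, which phosphorylates Smad2 and Smad3. Betaglycan, the product of Tgfbr3, presents ligand to these receptors, and activin A, a dimer of the Inhba product, signals to the same Smads through receptors of its own. In tumours the pathway is known for driving fibroblasts into a contractile, matrix-producing state.

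With 1 library per genotype there is no replicate check and no test between genotypes. Counts of unique molecular identifiers (UMIs) were summed over the cells of a class and scaled to the UMI total of that class (CPM). Intervals are exact, at 95%, and cover counting error only, so they say nothing of differences between mice or tumours. They also take each UMI as independent. Where a few cells hold many of the UMIs of a gene, they are too narrow even for the sampling of cells. Below, a gene is called higher or lower when the log2 ratio of Atf4 Δ/Δ over Atf4 WT/WT passed 2-fold with an interval off 0, among genes with at least 20 UMIs over both libraries.

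The libraries held 38417113 UMIs in 6304 barcodes (Atf4 WT/WT) and 38290024 UMIs in 5474 barcodes (Atf4 Δ/Δ), and 3861 and 3557 cells were kept. They shared 10 barcodes, of which 1 was kept in both. A marker gate gave 213 and 253 cancer-associated fibroblasts (CAFs), 88 and 30 endothelial cells, 846 and 656 macrophages, 365 and 274 monocytes, and 1681 and 1599 melanoma cells. The summed markers of each of these 5 classes stood highest in that class, and 506 and 641 cells fell in no class. The cells in no class had median depths of 1473.5 and 3779 UMIs. In them Tgfbi was at 195 and 27.0 CPM, Thbs1 at 241 and 88.4 CPM and Tgfb1 at 95.6 and 31.8 CPM, each past 2-fold lower. The other members were not called there, and the share of all genes was not taken. They held 16.1% of the kept Tgfbi UMIs and 13.9% of the Thbs1 UMIs of the Atf4 WT/WT library. The part of the gate in the ratios of the classes was not tested. Atf4 itself was lower in every host class of the Atf4 Δ/Δ library, with log2 ratios from -1.81 in macrophages to -3.10 in endothelial cells, against -0.17 in melanoma cells. Sex markers split the libraries too, and those of the Atf4 WT/WT library went against its label: the 4 Y-linked genes examined had 0 UMIs in each of its 5 classes. In the Atf4 WT/WT library 0 host cells had a Y-linked UMI without Xist, whereas the Atf4 Δ/Δ CAFs comprised 65 cells with Xist but without Y-linked UMIs (Xist cells below) and 54 cells of the opposite kind (Y cells). The split is given below for several genes, each against the Xist cells of the Atf4 WT/WT library. Melanoma markers in host classes put free RNA at 4.77% to 22.1% of the UMIs of a class, on the assumption that all such UMIs were free RNA. Red cell markers, which were not gated, differed between the libraries in every class. They were at 2532 and 2.98 CPM in monocytes, 1686 and 0.571 CPM in macrophages and 404 and 0 CPM in melanoma cells. In CAFs they were at 375 and 0 CPM, and in endothelial cells at 37.8 and 0 CPM. The part of this difference in the ratios below was not tested.

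Each gene had a characteristic range of classes. Tgfb1, the ligand made most widely, stood at 323 CPM (interval 273 to 381) in Atf4 WT/WT monocytes, 236 CPM (217 to 257) in macrophages, 234 CPM (190 to 285) in endothelial cells, 146 CPM (122 to 172) in CAFs and 12.4 CPM (10.9 to 14.1) in melanoma cells. The endothelial interval overlapped those of monocytes and macrophages, while CAFs and melanoma cells each stood apart. Tgfb2 was at 31.1 CPM (20.8 to 44.6) in Atf4 WT/WT CAFs, 14.2 CPM (5.21 to 30.9) in endothelial cells and 11.9 CPM (10.4 to 13.5) in melanoma cells, the endothelial interval overlapping both others. Tgfb3 was at 26.8 CPM (17.3 to 39.5) in CAFs, 18.9 CPM (8.17 to 37.3) in endothelial cells and 1.69 CPM (1.16 to 2.37) in melanoma cells. Neither passed 2.23 CPM in macrophages or monocytes of that library. Melanoma cells held 79.7% of all kept Tgfb2 UMIs in the Atf4 WT/WT library and 65.9% in the Atf4 Δ/Δ library, beside 77.3% and 71.1% of the UMIs of all genes.

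**Figure D1:**
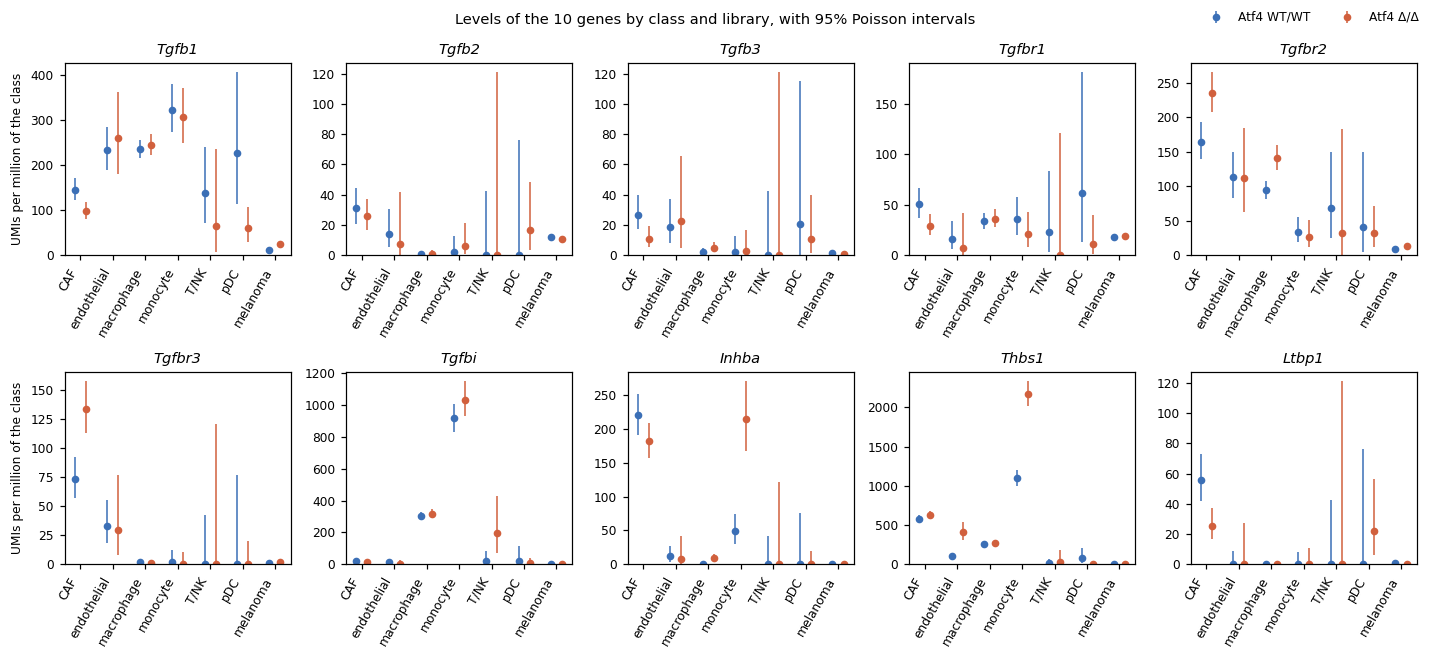
CPM of the class (y axis, from 0, a separate scale for each gene) for the 10 genes in 7 classes (x axis) of the Atf4 WT/WT (blue) and Atf4 Δ/Δ (orange) libraries; bars are 95% Poisson intervals, and pDC stands for plasmacytoid dendritic cells. Ltbp1 and Tgfbr3 are highest in CAFs among the well-covered classes, Tgfbi and Thbs1 in monocytes, and Inhba is at 214 CPM in Atf4 Δ/Δ monocytes against 49.1 CPM in Atf4 WT/WT monocytes.

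The receptors were less restricted. Tgfbr2 was highest in CAFs of both libraries, at 165 CPM (140 to 193) and 235 CPM (207 to 266), and lowest in melanoma cells, at 9.685 and 13.1 CPM. Tgfbr1 covered CAFs, macrophages and monocytes with overlapping intervals in the Atf4 WT/WT library (50.4, 33.6 and 35.7 CPM) and stood at 18.6 CPM in melanoma cells. Tgfbr3 was close to a stromal gene: it reached 72.9 CPM in CAFs and 33.1 CPM in endothelial cells but 1.75 CPM in macrophages.

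Tgfbi and Thbs1 were highest in monocytes, and Thbs1 was higher in CAFs than in macrophages. Tgfbi was at 915 CPM (828 to 1008) in Atf4 WT/WT monocytes and 302 CPM (280 to 326) in macrophages, against 23.6 CPM in CAFs. Thbs1 was at 1098 CPM (1003 to 1199) in monocytes, 579 CPM (531 to 630) in CAFs and 261 CPM (241 to 283) in macrophages, and none of these intervals overlapped. Inhba and Ltbp1 were CAF genes in the Atf4 WT/WT library. CAFs held 76.2% of its kept Inhba UMIs and 75.4% of its Ltbp1 UMIs. Ltbp1 had 0 UMIs in macrophages, monocytes and endothelial cells of either library. This allows up to 1.31 CPM in Atf4 WT/WT macrophages but up to 22.4 CPM in the few Atf4 Δ/Δ endothelial cells. In the Atf4 Δ/Δ library plasmacytoid dendritic cells held 4 Ltbp1 UMIs (22.0 CPM), with an interval that overlapped that of CAFs (25.6 CPM).

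Likeness of pattern was measured over 14 points (7 classes in 2 libraries) as Pearson's r of log2(CPM + 1), among 10084 genes with at least 200 UMIs. The points share libraries and class definitions, so r is a description. For Tgfbr3 the nearest genes were Tagln (r = 0.987), a smooth muscle actin-binding protein, Pcdh19 (0.983) and Serping1 (0.975). For Tgfbi they were Lst1 (0.962), Ctsc (0.952) and Csf1r (0.946), the receptor for macrophage colony-stimulating factor. For Ltbp1 they were Prg4 (0.928), Slit2 (0.914) and Fzd2 (0.911), for Inhba C3 (0.922), Pla1a (0.917) and Fn1 (0.913), and for Thbs1 Ifitm3 (0.947), Kdm6b (0.946) and Rbms1 (0.930). Tgfb1 was nearest to Crlf2 (0.969), Clic1 (0.964) and Zfp36 (0.941), Tgfb2 to Nectin3 (0.963), Bmpr1a (0.956) and Amotl2 (0.947), and Tgfb3 to Rrbp1 (0.918), Tcf4 (0.914) and Pdgfrb (0.906). Tgfbr1 was nearest to Ubap1 (0.953), Akt2 (0.949) and Rpl10-ps3 (0.947), and Tgfbr2, the least closely matched, to Cnrip1 (0.889), Fgfr1 (0.887) and Serpinb6a (0.885).

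In CAFs, the ligand-anchoring gene Ltbp1 and the ligand gene Tgfb3 were lower in the Atf4 Δ/Δ library, while the co-receptor Tgfbr3 and the receptor Tgfbr2 stood higher without reaching 2-fold. All 10 genes had enough UMIs in CAFs. Of these, 2 were called lower, beside 4.76% of the 8089 CAF genes measured, and 0 were called higher, beside 3.44%. In all, 6 of the 10 had an interval off 0. The share of all CAF genes with such an interval was not taken, so this count has no baseline. The median log2 ratio of the 10 genes was -0.42, beside -0.05 over all genes measured.

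Ltbp1 encodes a latent TGFβ-binding protein that ties the latent complex to the matrix. It lies at chr17:75005568-75392512 on the plus strand (GRCm38, GENCODE vM21). CAFs held 52 Ltbp1 UMIs in the Atf4 WT/WT library (55.7 CPM, 41.6 to 73.1) and 28 in the Atf4 Δ/Δ library (25.6 CPM, 17.02 to 37.03), and these intervals do not overlap. The log2 ratio was -1.12 (-1.84 to -0.43). It was -2.41 (-4.74 to -0.78) in Atf4 Δ/Δ Xist cells (3 UMIs in 65 cells) and -1.05 (-2.20 to -0.06) in Y cells (10 UMIs in 54 cells), against 50 UMIs in the 170 Atf4 WT/WT Xist cells. The 10 highest cells held 65.4% of the Atf4 WT/WT UMIs, and without the 10 highest cells of each library the ratio was -0.83 (-2.02 to 0.30). Thinned to 2000 UMIs, 8.33% of Atf4 WT/WT CAFs (15 of 180, 4.74% to 13.4%) and 4.76% of Atf4 Δ/Δ CAFs (10 of 210, 2.31% to 8.58%) had an Ltbp1 UMI, with overlapping intervals. The 2 annotated upstream windows of Ltbp1 are shown because this gene was called in CAFs. The first ends at the start site of the longer form, and the second lies inside an intron of the gene, upstream of a shorter form (RefSeq, GRCm38.p6, chr17:75005279-75005528 and chr17:75178531-75178780, plus strand, 5′ to 3′). Capitals mark the letters CAGACA, a Smad-binding element, on either strand.
Ltbp1, long form: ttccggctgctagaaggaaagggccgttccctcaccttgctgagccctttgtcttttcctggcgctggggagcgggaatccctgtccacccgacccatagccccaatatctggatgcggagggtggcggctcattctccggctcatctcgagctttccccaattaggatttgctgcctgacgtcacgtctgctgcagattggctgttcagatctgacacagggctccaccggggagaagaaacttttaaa
Ltbp1, short form: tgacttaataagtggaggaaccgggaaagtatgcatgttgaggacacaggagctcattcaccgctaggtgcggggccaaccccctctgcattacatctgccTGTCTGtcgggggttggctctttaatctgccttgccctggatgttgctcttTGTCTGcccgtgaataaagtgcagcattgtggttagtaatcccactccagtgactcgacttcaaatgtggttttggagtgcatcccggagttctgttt
The short-form window holds 2 such matches, 149 and 98 bases before the start site and not overlapping, and the long-form window 0. CAGACA is present in 17.1% of all 32851 upstream windows of 250 bases in that table, TGANTCA (AP-1) in 6.75% and TGATGNAA (the composite element bound by ATF4 with a C/EBP partner) in 3.45%, both strands counted. These AP-1 and ATF4 letters were absent from both Ltbp1 windows. Sites of any other form, including other sites that ATF4 may bind, were not searched, so the absence covers these letters only.

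Tgfb3 encodes a TGFβ isoform whose level in the Atf4 WT/WT library was highest in CAFs. CAFs held 25 and 12 UMIs, 26.8 CPM (17.3 to 39.5) against 11.0 CPM (5.67 to 19.2), a log2 ratio of -1.29 (-2.41 to -0.24), and the single-library intervals overlap slightly. After thinning to 2000 UMIs the positive shares were 6.11% (11 of 180, 3.09% to 10.7%) and 2.38% (5 of 210, 0.78% to 5.47%), which also overlap. Tgfb3 was not spread evenly over the Atf4 Δ/Δ CAFs. The 14 of them with at least 2 UMIs of mural (pericyte and smooth muscle) markers held 6 of the 12 UMIs, where the Atf4 Δ/Δ level was 101 CPM (37.0 to 219) against 11.1 CPM (0.28 to 61.9) from 1 UMI in 15 such Atf4 WT/WT cells, a log2 ratio of 3.18 (0.14 to 8.70). Over the other 239 the level was 5.81 CPM (2.13 to 12.6), against 28.5 CPM (18.2 to 42.3) in the matching 198 Atf4 WT/WT cells. In Atf4 Δ/Δ Y cells Tgfb3 was at 21.5 CPM (7 UMIs), a ratio of -0.25 (-1.73 to 1.05), beside 25.4 CPM in Atf4 WT/WT Xist cells. Atf4 Δ/Δ Xist cells held 1 UMI. The Y-cell interval also holds the ratio over all CAFs, -1.29, so these counts cannot show whether the lower level was absent there.

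Tgfb1 in CAFs was at 146 CPM in the Atf4 WT/WT library and 98.8 CPM (81.1 to 119) in the Atf4 Δ/Δ library, and the log2 ratio was -0.56 (-0.94 to -0.19). By kind of Atf4 Δ/Δ cell the ratio was -1.08 (-1.91 to -0.34, 17 UMIs) for Xist cells and -0.06 (-0.59 to 0.45, 45 UMIs) for Y cells, intervals that overlap. Macrophage markers, whose own class holds more Tgfb1, were at 294 CPM in Atf4 WT/WT CAFs and 91.5 CPM in Atf4 Δ/Δ CAFs, and their part in the result was not tested. Tgfb2 was at 31.1 and 25.6 CPM, and its interval of -1.08 to 0.52 on the log2 scale spans a 2-fold decrease. By kind of Atf4 Δ/Δ cell the ratio of Tgfb2 was -2.996 (-8.36 to -0.39, 1 UMI) in Xist cells and 0.08 (-1.09 to 1.16, 11 UMIs) in Y cells.

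The receptors stood in opposite directions. Tgfbr2 reached 165 and 235 CPM (log2 ratio 0.51, 0.22 to 0.81) and Tgfbr3 at 72.9 and 134 CPM (0.87, 0.45 to 1.31), whereas Tgfbr1 was at 50.4 and 29.3 CPM (-0.78, -1.48 to -0.10). Tgfbr2 and Tgfbr3 gave like ratios in both kinds of Atf4 Δ/Δ cell, at 0.58 and 0.44 for Tgfbr2 and 0.97 and 0.88 for Tgfbr3. For Tgfbr1 they were -0.26 (-1.31 to 0.68) in Xist cells and -1.42 (-2.81 to -0.26) in Y cells, intervals that overlap. Without the 10 highest cells of each library Tgfbr3 was past 2-fold, at 1.05 (0.54 to 1.57), and so was Tgfbr1, at -1.02 (-1.98 to -0.11). Thinned to 2000 UMIs, 17.2% of Atf4 WT/WT CAFs (31 of 180) and 22.9% of Atf4 Δ/Δ CAFs (48 of 210) had a Tgfbr3 UMI, with overlapping intervals of 12.01% to 23.5% and 17.4% to 29.1%. In macrophages, thinned alike, the shares were 0.365% and 0.477%, where the median depth was 2432.5 and 2447 UMIs against 3747 and 3739 in CAFs.

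Inhba in CAFs had 205 and 198 UMIs, 220 CPM (191 to 252) against 181 CPM (157 to 208), and its log2 ratio of -0.28 had an interval of -0.57 to 0.01. It was -0.12 (-0.59 to 0.32) in Xist cells and -0.68 (-1.17 to -0.21) in Y cells. In CAFs with at least 2 UMIs of mural markers the ratio of Inhba was -2.73 (-5.87 to -0.69). This rested on 20 UMIs in 15 Atf4 WT/WT cells and 2 UMIs in 14 Atf4 Δ/Δ cells. In the other CAFs the ratio of Inhba was -0.21 (-0.51 to 0.09). Its cells were distributed differently. In the Atf4 WT/WT library 39 of 213 CAFs had an Inhba UMI, with 5.26 UMIs per positive cell, up to 34 in 1 cell and 63.9% of all UMIs in 10 cells. In the Atf4 Δ/Δ library 72 of 253 had one, with 2.75 UMIs per positive cell, at most 14 in 1 cell and 37.9% in 10 cells. Thinned to 2000 UMIs, the positive shares were 14.4% (26 of 180, 9.66% to 20.4%) and 21.9% (46 of 210, 16.5% to 28.1%), with overlapping intervals, beside 0.182% and 0.477% in macrophages. Without the 10 highest cells of each library the ratio was 0.54 (0.11 to 0.97), the opposite direction. That removal was unequal, since it took 10 of 39 positive Atf4 WT/WT cells but 10 of 72 positive Atf4 Δ/Δ cells. Thbs1, by contrast, was at 579 and 630 CPM with 56.3% and 62.8% of CAFs positive before thinning, and its log2 ratio of 0.12 had an interval of -0.04 to 0.29. Tgfbi had 22 and 14 UMIs, of which 10 cells held 86.4% in the Atf4 WT/WT library, and its ratio was -0.88 (-1.96 to 0.15).

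**Figure D2:**
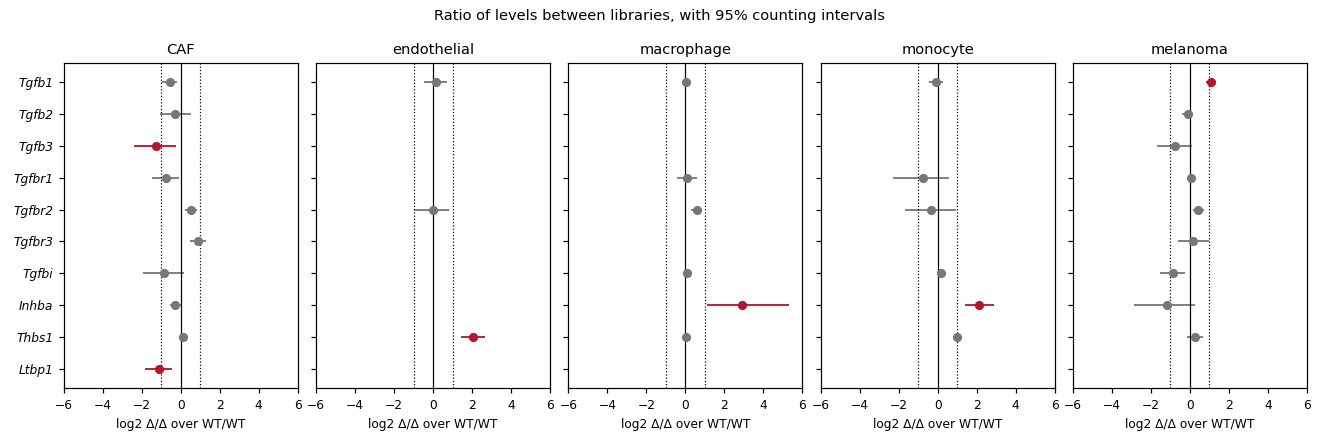
Log2 ratio of Atf4 Δ/Δ over Atf4 WT/WT (x axis) for each gene (y axis) in 5 classes, for genes with at least 20 UMIs; bars are 95% counting intervals, dotted lines mark 2-fold and red points passed it with an interval off 0. The red points are Tgfb3 and Ltbp1 in CAFs (lower), Thbs1 in endothelial cells, Inhba in macrophages and monocytes, and Tgfb1 in melanoma cells (higher).

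In monocytes the activin gene Inhba was higher in the Atf4 Δ/Δ library, and the TGFβ-releasing gene Thbs1 stood just under 2-fold higher. Of the 10 genes 6 were measured, 1 was called higher, beside 2.92% of the 4352 monocyte genes, and 0 were called lower, beside 2.64%. Inhba had 22 UMIs in Atf4 WT/WT monocytes (49.1 CPM, 30.8 to 74.3) and 72 in Atf4 Δ/Δ monocytes (214 CPM, 168 to 270), intervals that do not overlap. The ratio was 4.365-fold, or 2.13 on the log2 scale (1.42 to 2.89). In the Atf4 Δ/Δ library Inhba in monocytes thereby reached the level of CAFs, 181 CPM, within the intervals, whereas in the Atf4 WT/WT library CAFs stood 4.48-fold higher than monocytes. Positive monocytes numbered 14 of 365 and 29 of 274, and 10 cells held 81.8% and 68.1% of the Inhba UMIs. Thinned to 1000 UMIs, the shares were 4.37% (11 of 252, 2.20% to 7.68%) and 9.30% (16 of 172, 5.41% to 14.7%), with overlapping intervals. They stood beside 0.121% and 0% in melanoma cells (2 of 1651, and 0 of 1573, which allows up to 0.191%). At 2000 UMIs few monocytes remained, and 1 of 15 and 0 of 14 had an Inhba UMI. Median depths were 1130 and 1108.5 UMIs in monocytes and 11605 and 11121 in melanoma cells.

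Inhba was high in both kinds of Atf4 Δ/Δ monocyte. It was at 289 CPM in the 25 Xist cells and at 304 CPM in the 31 Y cells (11 UMIs each), beside 57.5 CPM in the 186 Atf4 WT/WT Xist cells. Without the 10 highest cells of each library 4 and 23 UMIs remained, a log2 ratio of 2.96 (1.41 to 4.95). In these monocytes CAF markers were at 210 and 146 CPM, macrophage markers at 2142 and 3824 CPM and neutrophil markers at 44.6 and 253 CPM. Red cell markers were at 2532 and 2.98 CPM. The part of all these markers in the difference was not tested. Macrophages had 1.31 and 9.72 CPM of Inhba, below the monocytes of either library.

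Inhba is encoded at chr13:16011851-16031621 on the plus strand (GRCm38, GENCODE vM21). Its upstream window is shown because Inhba was called in monocytes (RefSeq, GRCm38.p6, chr13:16011601-16011850, plus strand, 5′ to 3′). No capitals occur, because the window holds 0 matches to the AP-1, Smad or ATF4 letters given above.
Inhba: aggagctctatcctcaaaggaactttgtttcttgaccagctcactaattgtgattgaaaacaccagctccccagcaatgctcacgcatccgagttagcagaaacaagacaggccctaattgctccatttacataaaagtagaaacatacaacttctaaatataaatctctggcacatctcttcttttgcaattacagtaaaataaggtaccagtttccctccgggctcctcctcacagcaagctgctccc

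Thbs1 encodes thrombospondin-1, which can release TGFβ from its latent form. In monocytes it was at 1098 CPM (1003 to 1199, 492 UMIs) in the Atf4 WT/WT library and 2169 CPM (2015 to 2333, 729 UMIs) in the Atf4 Δ/Δ library, 1.98-fold, just short of the 2-fold limit, with a log2 ratio of 0.98 (0.82 to 1.15). The difference was spread over many cells. The share of monocytes with a Thbs1 UMI was 51.2% (129 of 252, 44.8% to 57.5%) and 73.3% (126 of 172, 66.0% to 79.7%) after thinning to 1000 UMIs, and 0 against 10 cells had 10 or more Thbs1 UMIs before thinning. In melanoma cells, thinned alike, the share was 0.363% and 0.572%. By kind of cell the Atf4 Δ/Δ level was 1942 CPM in Xist cells and 2679 CPM in Y cells, beside 977 CPM in Atf4 WT/WT Xist cells. Tgfbi in monocytes had levels of 915 and 1033 CPM with a ratio of 0.17 (-0.04 to 0.38 on the log2 scale), which was -0.49 (-1.11 to 0.07) in Xist cells and 0.58 (0.13 to 1.002) in Y cells. Tgfb1 had 323 and 307 CPM with a ratio of -0.08 (-0.46 to 0.30).

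**Figure D3:**
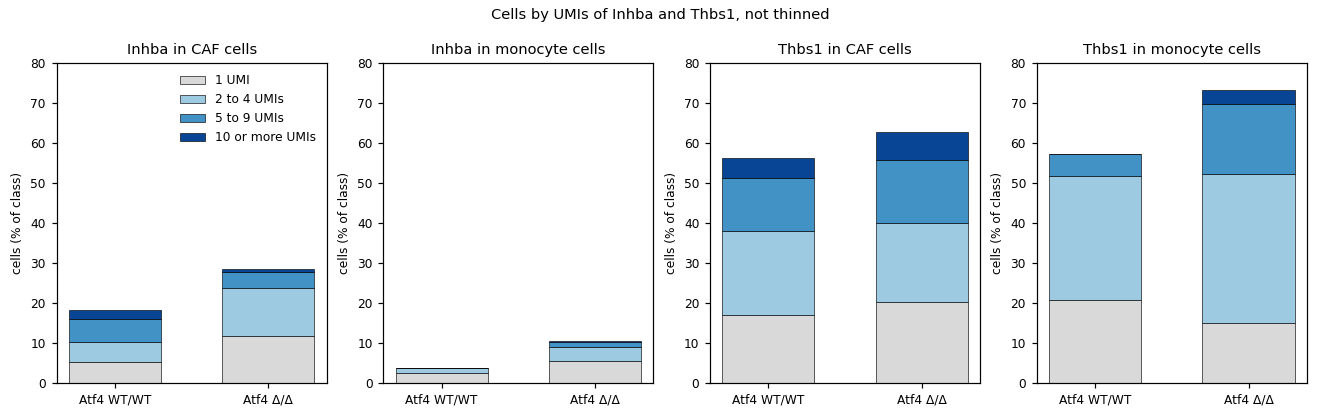
Share of cells (y axis, percent of the class) by the number of UMIs of Inhba and Thbs1 per cell, not thinned, in CAFs and monocytes of each library (x axis). In CAFs more Atf4 Δ/Δ cells have an Inhba UMI but fewer have 10 or more (2 of 253 against 5 of 213); in monocytes 10 of 274 Atf4 Δ/Δ cells and 0 of 365 Atf4 WT/WT cells have 10 or more Thbs1 UMIs.

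In macrophages most of the pathway genes stood level between the libraries. Of the 6 genes measured 1 was called higher, beside 2.31% of 8997 genes, and 0 lower, beside 1.83%. The called gene was Inhba, with 3 and 17 UMIs, a log2 ratio of 2.89 (1.10 to 5.30); the 17 UMIs lay in 13 of 656 cells, with monocyte markers at 307 and 396 CPM in the class, whose part was not tested. The call was lost in 5 alternatives: Xist cells held 2 and 0 UMIs, Y cells gave 2 UMIs against 2 in Atf4 WT/WT Xist cells (-1.35 to 6.22), 0 and 3 UMIs remained without the 10 highest cells, and the minimum was missed with free RNA subtracted or when set at 50 UMIs. Tgfbr2 stood at 94.3 CPM (82.1 to 108) and 141 CPM (124 to 160), with a ratio of 0.58 (0.31 to 0.85), and at 0.72 and 0.78 in its Xist and Y cells. Tgfb1 (236 and 245 CPM), Tgfbi (302 and 318 CPM), Thbs1 (261 and 267 CPM) and Tgfbr1 (33.6 and 36.0 CPM) had log2 ratios of 0.03 to 0.10. The widest interval among these 4, for Tgfbr1, ran from -0.40 to 0.60. The share of macrophages with a Thbs1 UMI was 20.4% (17.1% to 24.1%) and 11.5% (8.57% to 14.9%) after thinning to 2000 UMIs, intervals that do not overlap, and 20.05% (17.3% to 22.99%) and 18.1% (15.1% to 21.3%) after thinning to 1000, which leaves out fewer cells. In melanoma cells these shares were 0.745% and 0.783% at 2000 UMIs.

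Endothelial cells were few in the Atf4 Δ/Δ library, and 3 of the 10 genes were measured. Thbs1, also an inhibitor of blood vessel growth, was the 1 called higher, beside 3.38% of 4054 genes, and 0 were called lower, beside 2.32%. It had 43 UMIs (102 CPM, 73.6 to 137) and 56 UMIs (417 CPM, 315 to 542), a log2 ratio of 2.04 (1.44 to 2.64), and the intervals do not overlap. In the Atf4 Δ/Δ library 14 of 30 cells were positive and 10 cells held 92.9% of the UMIs. The ratio was 1.66 (0.42 to 2.74) in Xist cells and 2.80 (2.05 to 3.55) in Y cells. Without the 10 highest cells of each library 13 and 4 UMIs remained, a ratio of 0.30 (-1.78 to 1.99). This took out 10 of 30 Atf4 Δ/Δ cells but 10 of 88 Atf4 WT/WT cells. The removal was therefore unequal, and the lower ratio cannot be read as a change in the remaining cells alone. Mural markers were at 393 and 730 CPM and CAF markers at 2725 and 857 CPM in these cells, and their part in the result was not tested. Tgfb1 (234 and 261 CPM) and Tgfbr2 (114 and 112 CPM) had log2 ratios of 0.16 (-0.44 to 0.73) and -0.02 (-0.97 to 0.84).

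Melanoma cells, which carry Atf4 in both libraries, had more Tgfb1 in the Atf4 Δ/Δ hosts. Of the 9 genes measured 1 was called higher, beside 2.75% of 12166 genes, and 0 lower, beside 1.1%. Tgfb1 rested on 242 and 465 UMIs, 12.4 CPM (10.9 to 14.1) and 25.9 CPM (23.6 to 28.4), a log2 ratio of 1.06 (0.83 to 1.29). It was the opposite of the direction in CAFs. No cell had over 7 UMIs, and thinned to 2000 UMIs 2.55% of cells (41 of 1611, 1.83% to 3.44%) and 4.70% (72 of 1533, 3.69% to 5.88%) had one. The class with the highest level, monocytes, had its markers at 7.33 and 7.68 CPM in melanoma cells, and macrophage markers were at 57.6 and 62.6 CPM. With a mitochondrial limit of 15% and with classes from clusters the ratio was 0.89 and 0.93, under 2-fold. Tgfbr2 (9.685 and 13.1 CPM, 0.43) and Tgfbi (3.48 and 1.89 CPM, -0.88) also had intervals off 0. Tgfb2, the ligand that melanoma cells contributed most of, was at 11.9 and 11.1 CPM, with an interval of -0.38 to 0.18, and Tgfbr1 was at 18.6 and 19.4 CPM, with an interval of -0.15 to 0.28. Ltbp1 had 13 and 1 UMIs, too few to be called.

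The rest of the pathway was read in CAFs from 6 lists, some genes standing in more than 1. All 6 were chosen with earlier results of these data known, so their counts and medians are a description. Of 17 genes of latency and activation 14 were measured, 3 were lower and 0 higher, beside 4.76% and 3.44% of all CAF genes, and the median log2 ratio was -0.22. The lower 3 were Fbn2 (138 and 38.4 CPM, log2 ratio -1.85), a fibrillin of the microfibrils that hold latent TGFβ, Ltbp4 (47.1 and 14.6 CPM, -1.69), another latent TGFβ-binding protein, and Lrrc32 (106 and 43.0 CPM, -1.30), which holds latent TGFβ on the cell surface. Of the 4 Ltbp genes, then, Ltbp1 and Ltbp4 were called lower, while Ltbp2 (33 and 76 UMIs, 0.98) and Ltbp3 (39 and 35 UMIs, -0.38) were not called. The major fibrillin gene, Fbn1, had 982 and 1138 UMIs and a ratio of -0.02. Of 10 other receptors 7 were measured, 1 was lower (Acvr2a, an activin receptor, 20 and 8 UMIs, named after its values were seen) and the median was -0.37.

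Among 15 Smads and their regulators, 13 were measured and none of these was called, with a median of -0.15. Of 9 secreted or membrane antagonists 7 were measured, 1 was lower (Bmper, a BMP-binding protein, 36 and 16 UMIs, -1.40) and the median was 0.53. Follistatin (Fst), which binds activin A, had 112 and 190 UMIs, a ratio of 0.53. Of 12 other ligands 1 was measured, Inhbb, with 9 and 19 UMIs. All these medians stand beside -0.05 for all CAF genes measured.

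The list of genes known to respond to TGFβ held 26 symbols, of which 25 are in the files. It named the same gene as both Ctgf and Ccn2. In CAFs 21 were measured, of which 4 were lower, 1 was higher and 16 were not called, with a median of -0.36, beside 4.76% lower and 3.44% higher among all CAF genes. Postn, encoding the matrix protein periostin, was at 2088 and 817 CPM (log2 ratio -1.35, -1.47 to -1.24), Ctgf, a matricellular growth factor, at 230 and 108 CPM (-1.09), and Tnc, encoding tenascin-C, at 1141 and 538 CPM (-1.08). Acta2, encoding smooth muscle actin, was the remaining lower gene (-1.05). The study had already reported Acta2 lower in CAFs of these tumours, so its call here is no independent support. Spsb1, an adaptor of a ubiquitin ligase, was higher, at 23.6 and 75.9 CPM (1.69, 0.996 to 2.44). Not all response genes shared the direction: Lox (712 and 1272 UMIs, 0.61), Fn1 (2003 and 2843 UMIs, 0.28) and Tpm1 (309 and 500 UMIs, 0.47) stood above 0. CAF markers as a whole were at 40549 and 29973 CPM and mural markers at 101 and 79.6 CPM, and their part in these differences was not tested.

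**Figure D4:**
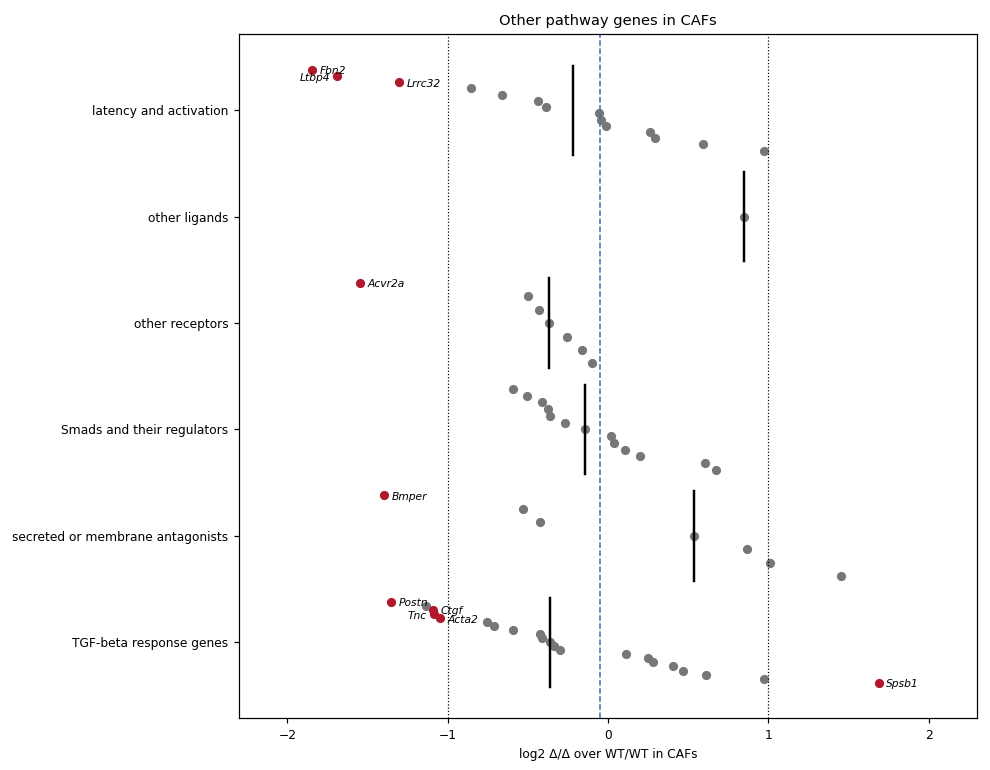
Log2 ratio of Atf4 Δ/Δ over Atf4 WT/WT in CAFs (x axis) for the measured genes of 6 pathway lists (y axis); black bars are list medians, the dashed line is the median of all 8089 genes measured, dotted lines mark 2-fold, and red points passed it with an interval off 0. The red genes lie to the left in 4 lists, from Fbn2 at -1.85 to Acta2 at -1.05, with Spsb1 at 1.69 on the right.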

How the data were processed

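The values are whole UMI counts for each gene in each barcode, as deposited by the authors; the submitters' processing notes name Cell Ranger 3.1.0, Seurat 3.2.1 and GRCm38. The labels and the study's methods differ on the kit version and on the age of the mice. Each library pooled 2 tumours, and nothing ties a cell to a tumour. The members and all lists were chosen with earlier results of these data known.

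The study's limits on cells were applied, 200 to 5000 detected genes and no more than 7.5% of UMIs from mitochondrial genes. A cell joined a class if at least 2 of its markers were detected, its mean z-score of log-normalized marker levels reached 0.3 and led the next class by 0.1. These limits were set after looking at marker levels and cell numbers, not at the genes reported. Doublets (96 and 47 by Scrublet in scanpy 1.11.5) stayed in, and were removed in an alternative. Ratios have exact conditional binomial intervals, levels exact Poisson intervals, and shares exact Clopper-Pearson intervals. For a count of 0, 3 counts were taken as the upper limit. The named genes are the 10 members, per list up to 3 in each direction with at least 50 UMIs past 2-fold in CAFs, and the 3 nearest genes by r; other list genes given with values were named after their values were seen. The calculation was tested on simulated data. Alternatives used Seurat 5.3.0 and edgeR 4.0.16 (R 4.3.3). Sums and intervals came from scipy 1.17.1, with pandas 2.3.3 and numpy 2.4.6, under Python 3.11.15. Upstream sequence was found for 7 of the 10 genes (RefSeq), not for Tgfb3, Tgfbr3 and Thbs1.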

Additional observations from a re-analysis of the deposited data

Results flagged for a closer look

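Tgfb1 stood out because its ratio between the libraries had opposite directions in 2 classes, each with an interval off 0. In melanoma cells the log2 ratio of Atf4 Δ/Δ over Atf4 WT/WT was 1.06 (0.83 to 1.29), and in CAFs it was -0.56 (-0.94 to -0.19). The difference between the classes was not tested, since each genotype had 1 library.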

How the results depend on the processing

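No paired analysis was possible because 1 library stood for each genotype, so neither could a replicate be left out. The 6 called ratios kept their direction under every alternative in which they could be computed, and Inhba in monocytes stayed past 2-fold in 12 of 12 (2.12 to 2.96). Tgfb1 in melanoma cells fell under 2-fold in 2 of 9 (0.89 to 1.21). The share of all genes called was not taken under the alternatives, so the counts of genes called below have no baseline. In Xist cells the ratio was -2.67 (-8.05 to -0.03) for Tgfb3 and -2.41 for Ltbp1 in CAFs, and 4 genes were called there. With Atf4 Δ/Δ Y cells, an alternative chosen after seeing the data, Tgfb3 in CAFs was -0.25 (-1.73 to 1.05) and not called, Thbs1 in endothelial cells was 2.80 and 2 genes were called in monocytes. Without the 10 highest cells, also chosen after seeing the data, the 2 genes called in CAFs were Tgfbr3 and Tgfbr1. Ltbp1 was lost at -0.83, and Tgfb3 had 0 Atf4 Δ/Δ UMIs left because only 9 of those cells were positive. Thbs1 in endothelial cells was 0.30 and 0 genes were called there, Inhba in monocytes was 2.96, and 3 genes were called in melanoma cells. This setting takes a larger share from the library with fewer cells or fewer positive cells. In macrophages 0 genes were called with free RNA subtracted, in Xist cells, in Y cells, at a minimum of 50 UMIs and without the 10 highest cells, since Inhba then had fewer than the required UMIs. At a minimum of 50 UMIs 1 gene was called in CAFs, Tgfb3 having too few, and the median of the Smads and their regulators in CAFs was 0.0201. In melanoma cells 2 genes were called with a mitochondrial limit of 15% and 2 with no minimum. Where not shown by the construction of the setting, the cause was not tested. With a mean over cells in place of sums, the class that ranked 1 for Tgfb3 (endothelial, 3 UMIs) and for Ltbp1 (CAF) in the Atf4 Δ/Δ library ranked 2; for Tgfbr1 in the Atf4 WT/WT library the highest class, plasmacytoid dendritic, had under 20 cells with classes from clusters and could not be ranked. Of the ratios not called, 293 under the alternatives lay inside the interval given by the main setting and 21 did not. TMM and median-of-ratios scaling changed none of the 6 calls; TMM moved the median of all endothelial genes from 0.03 to -0.14, and Thbs1 there was then 1.87. Depth limits rare genes: in Atf4 Δ/Δ endothelial cells 3 counts equal 22.4 CPM.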
